A study of Mus musculus with 12 samples.

Results

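The cytochrome P450 genes of families 1 to 4 were described in mouse liver RNA across 3 groups of 4 livers. The members were all genes of the deposited table whose symbol is Cyp, a family number from 1 to 4, a subfamily letter and a number. That rule found 75 of 48537 genes and uses no measured value. Copies whose symbols end in a further letter, such as Cyp4a12a, fall outside it. Each library is the RNA of 1 liver collected at ZT 10, counted in hours from the onset of light. The re-expression livers are labelled as re-expressing REV-ERBalpha in its wild-type form on the background of the double knockout, and these samples' titles do not name YFP while their columns do. The livers labelled DKO carry, per the labels, a double knockout of the REV-ERB genes and YFP. The control livers are labelled wildtype with YFP. Column names of the table mark the livers labelled DKO with Cre, a recombinase. The sources used here do not say how these agents were delivered, which cells received them, or which strain, sex and age the mice had. Livers labelled DKO and control livers share YFP, while an effect of Cre cannot be told apart from that of the REV-ERB knockout between them.

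P450 enzymes hold a heme and sit mostly in the endoplasmic reticulum, where P450 oxidoreductase passes electrons to them. Families 1 to 3 oxidise drugs, toxins, steroids and bile acids, and family 4 oxidises fatty acids at the end of the chain. In liver many of them are made in hepatocytes near the central vein, and nuclear receptors such as CAR, PXR and PPARalpha, with the receptor AhR, induce sets of them. REV-ERBalpha and REV-ERBbeta, the products of Nr1d1 and Nr1d2, are repressors of the circadian clock, and many liver P450 transcripts are known to vary over the day in mice.

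The libraries held between 5621667 and 6906221 reads. Levels are in TPM, a share of all transcripts and a unit that corrects for gene length and for depth. Nr1d1 stood at 171, 203, 174 and 217 TPM in re-expression livers, 78.7, 84.7, 91.7 and 74.8 TPM in livers labelled DKO and 64.1, 69.7, 64.9 and 76.2 TPM in control livers. Nr1d2 averaged 97.7 ± 15.1, 90.4 ± 7.91 and 96.6 ± 14.9 TPM in those groups (SD, n = 4 each). Nr1d1 was not lower in livers labelled DKO than in control livers, the Nr1d2 means of these groups differed by less than the SD of either, and a sum over a whole gene cannot check a deletion of part of it. Control livers 3 and 4 stood apart from the other control livers on the second principal component of all tested genes, at -43.8 and -48.7, against 26.9 and 6.36 for control livers 1 and 2. On the first component control livers 1 and 2 lay farthest out, at 63.2 and 37.1, with control livers 3 and 4 at 20.6 and 11.3. The livers of the other groups ran there from -29.5 to 6.58. In whole liver, fewer cells of a type and less RNA per cell cannot be told apart.

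Of the 75 P450 genes, 53 reached a mean of at least 1 TPM over the 12 livers and were tested. The other 22 stayed under 1 TPM, and 6 of these had 0 reads in all libraries: Cyp2b23, Cyp2c66, Cyp2j7, Cyp2j11, Cyp2j12 and Cyp4a29. Among the members that passed, 10 averaged at least 1000 TPM, 19 from 100 to under 1000, 15 from 10 to under 100 and 9 from 1 to under 10. The most abundant was Cyp2e1, which oxidises ethanol and acetaminophen, with 18.95% to 25.8% of the RNA summed over the 75 genes in a liver. The other members of at least 1000 TPM were Cyp1a2, Cyp2a5, Cyp2c29, Cyp2c50, Cyp2d9, Cyp2d10, Cyp2d26, Cyp3a11 and Cyp3a25. The 5 members with the highest mean over the 12 livers together made up 49.98% to 53.9% of the RNA of the 75 genes in a liver.

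P450 RNA summed over the 75 genes was larger in both DKO backgrounds than in control livers. The sums were 38582, 34145, 33561 and 34451 TPM in re-expression livers, 34906, 33477, 36136 and 35366 TPM in livers labelled DKO and 29195, 29907, 28578 and 30822 TPM in control livers. Every re-expression liver and every liver labelled DKO lay above every control liver. By subfamily, Cyp2e held 22.1% of the RNA of the 75 genes over all livers, Cyp2c 19.9%, Cyp3a 14.5%, Cyp2d 14.2%, Cyp2a 12.9%, Cyp1a 4.23% and Cyp4a 3.57%. The Cyp2a sum was 4499 ± 249 TPM in re-expression livers, 5599 ± 526 TPM in livers labelled DKO and 2888 ± 432 TPM in control livers (SD, n = 4 each). The Cyp2c sum was 6805 ± 928, 7419.6 ± 854 and 5689 ± 176 TPM in the same order of groups. These sums were 1.94 and 1.304 times the control mean in livers labelled DKO, while the Cyp2e sum was 0.997 times it. The Cyp2d sum of 4582 ± 167 TPM in livers labelled DKO and 4574 ± 709 TPM in control livers differed by less than the SD of either group. Sums were not tested.

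**Figure D1:**
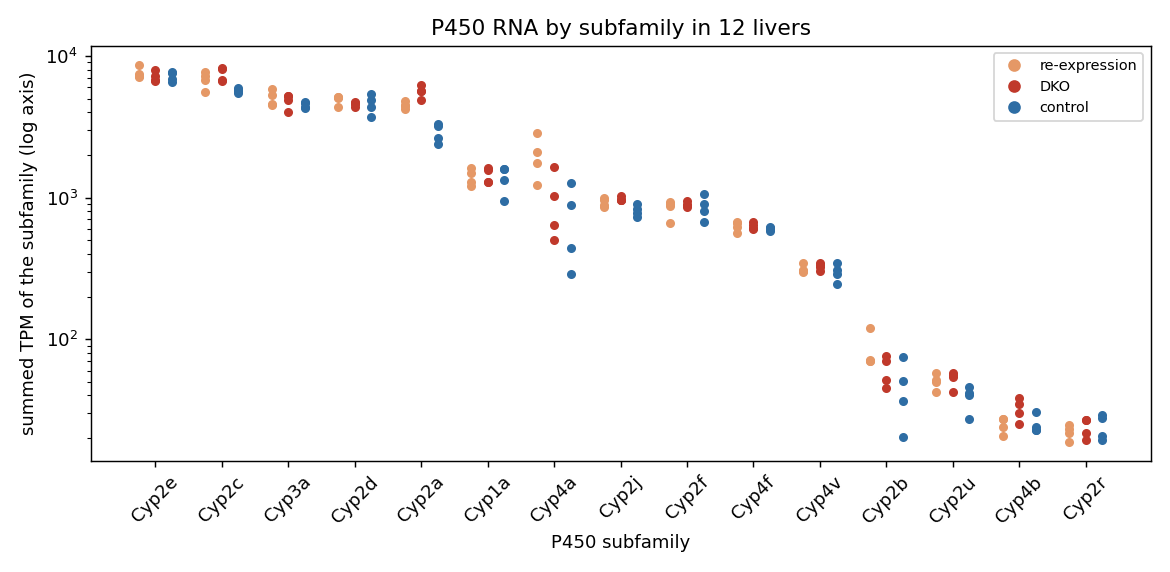
Summed TPM of each P450 subfamily with a mean of at least 10 TPM (log axis), 1 point per liver, in re-expression livers, livers labelled DKO and control livers. Cyp2a separates livers labelled DKO from control livers, at 1.94 times the control mean, while Cyp2e and Cyp2d overlap, and Cyp4a spreads widely within each group.

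The first comparison asked how P450 RNA differs between livers labelled DKO and control livers. It gave 16 P450 genes with an adjusted p under 0.05, 13 higher and 3 lower in livers labelled DKO. The higher ones were 3 Cyp2a genes, 7 Cyp2c genes, Cyp2j5, Cyp2j6 and Cyp3a59, and the lower ones were Cyp2c38, Cyp2d40 and Cyp3a13. The 16 are 30.2% of the 53 tested members, beside 5.33% of all 17957 tested genes, from limma on log2(TPM + 1) with Benjamini-Hochberg adjustment over all tested genes. The higher ones are 24.5% of members beside 2.99% of all genes, and the lower ones 5.66% beside 2.34%. Abundant genes are called more often: of genes with a mean of at least 100 TPM, 17.1% were called, beside 11 of 29 members, or 37.9%. The groups did not overlap for 18 members, 33.96% of those tested, beside 11.5% of all genes. Of these, 14 were higher, where 6.13% of all genes were, and 4 lower, where 5.4% were. The median difference was 0.16 on the log2(TPM + 1) scale over the 53 members and 0.00 over all genes, with 42 members above 0 and 11 below.

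The count of 13 depended on single livers. It was 8 without DKO liver 1, 6 without DKO liver 3, 4 without DKO liver 4, 6 without control liver 2, 5 without control liver 3 and 8 without control liver 4. The share of all genes called higher fell as well, to 1.87%, 2.16%, 1.85%, 2.53%, 2.18% and 2.64% in the same order, from 2.99% with all livers. The count of 3 lower genes was 1 without DKO liver 1, DKO liver 4 or control liver 2. In those fits 1.51%, 1.35% and 1.53% of all genes were called lower, beside 2.34% with all livers. Without control livers 3 and 4, which stand apart on the second component, 4 members were higher (Cyp2a5, Cyp2c55, Cyp2d22 and Cyp2j6) and 4 lower (Cyp2c38, Cyp2c39, Cyp2d40 and Cyp3a13). In that fit 2.67% of all genes were higher and 3.59% lower. Cyp2a5, Cyp2c55, Cyp2d40 and Cyp2j6 were called under each of the 22 alternatives run, and no called member changed sign under any of them.

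**Figure D2:**
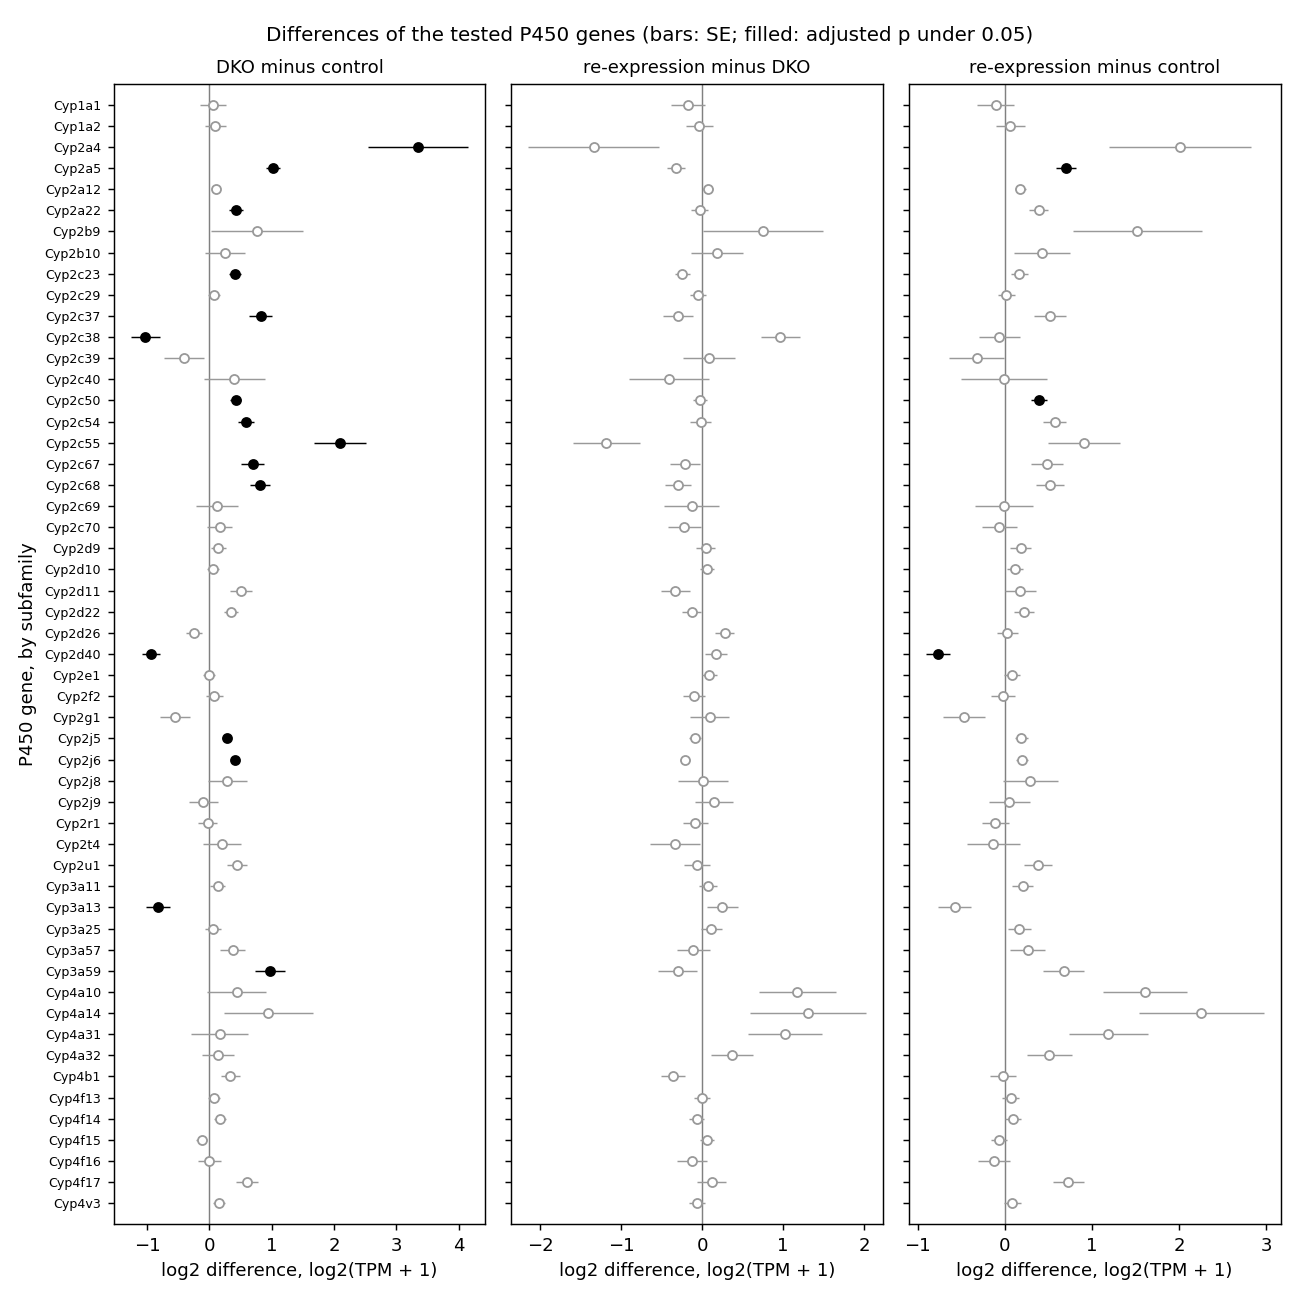
Difference of each of the 53 tested P450 genes in the 3 comparisons, in log2(TPM + 1), as points with SE bars. Filled points have an adjusted p under 0.05: 16 for livers labelled DKO against control, 0 for re-expression against livers labelled DKO and 3 for re-expression against control.

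Of the 4 tested Cyp2a genes, 3 were higher in livers labelled DKO, beside 2.99% of all genes, and all 4 lie in a cluster on chromosome 7. Cyp2a5, the coumarin 7-hydroxylase and the mouse counterpart of the nicotine-oxidising human CYP2A6, stood at 4233, 3686, 3674 and 3937 TPM in re-expression livers, 5158, 4951, 4402 and 4879.7 TPM in livers labelled DKO and 2207, 2792, 1933 and 2723 TPM in control livers. All 4 livers labelled DKO exceeded all 4 control livers, and the re-expression livers fell between the groups with no overlap on either side. The difference between livers labelled DKO and control livers was 1.02 ± 0.11 on the log2(TPM + 1) scale (limma, SE, adjusted p = 0.000394), a ratio of means of 2.01. Cyp2a4, a steroid 15alpha-hydroxylase that female mouse livers often make more of, stood at 88.8, 63.8, 221 and 17.5 TPM in re-expression livers, 568, 166, 38.8 and 256 TPM in livers labelled DKO and 19.2, 12.9, 11.3 and 25.3 TPM in control livers. Each liver labelled DKO was above each control liver, but DKO liver 1 held 568 TPM and DKO liver 3 held 38.8 TPM. Its difference was 3.35 ± 0.81 (adjusted p = 0.0353) and the ratio of means 14.996, or 8.95 without DKO liver 1. Cyp2a22 had 17.04, 18.7, 15.3 and 17.4 TPM in re-expression livers, 15.2, 16.1, 19.3 and 19.6 TPM in livers labelled DKO and 12.3, 14.2, 13.7 and 11.1 TPM in control livers. It differed between livers labelled DKO and control livers by 0.42 ± 0.11 (adjusted p = 0.0478), with no overlap. Cyp2a12, a testosterone hydroxylase, averaged 476 ± 17.9 TPM in livers labelled DKO and 444 ± 35.2 TPM in control livers and was not called (difference 0.10 ± 0.06, adjusted p = 0.443).

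The Cyp2a calls differed in how they held. No single liver ended the Cyp2a5 call. The Cyp2a4 call was lost without DKO liver 1, 2 or 4, re-expression liver 2 or any 1 control liver (adjusted p from 0.0506 to 0.0976). The Cyp2a22 call was lost when any 1 liver other than DKO liver 1 was left out (up to 0.138). Cyp2a4 (chr7:26307169-26315088, plus strand, mm10) and Cyp2a5 (chr7:26835305-26843548, plus strand) are close copies. Of the 50-base windows of Cyp2a4's exons, 38.01% occur in another gene, 36.1% in Cyp2a5. The sources used here do not say how reads that match both were counted, and the split of reads between them is uncertain. Cyp2a22 lies at chr7:26931631-26939384 on the minus strand, with 20.2% of windows shared. A Cyp2a4 exon also overlaps an exon of Gm42375 on the other strand, and whether counting kept strands apart is not given.

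The promoters of both genes are shown because mouse Cyp2a4 and Cyp2a5 are known targets of DBP, a clock output factor that binds the D-box, an element to which the repressor NFIL3 also binds. RefSeq gives the 200 bases from 250 to 51 before each start on GRCm38.p6 as follows, on the gene's strand, 5′ to 3′, with the D-box in capitals.
Cyp2a4 chr7:26306942-26307141 (+): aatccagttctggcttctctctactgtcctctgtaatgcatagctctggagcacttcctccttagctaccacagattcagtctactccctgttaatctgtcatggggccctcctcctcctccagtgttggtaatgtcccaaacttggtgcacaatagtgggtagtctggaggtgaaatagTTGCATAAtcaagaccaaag
Cyp2a5 chr7:26835089-26835288 (+): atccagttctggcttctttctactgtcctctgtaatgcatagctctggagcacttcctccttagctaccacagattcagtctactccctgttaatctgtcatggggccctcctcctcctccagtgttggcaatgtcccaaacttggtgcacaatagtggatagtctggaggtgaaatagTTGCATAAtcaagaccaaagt
The motif searched was TTATGNAA on both strands, and both promoters hold its reverse complement TTGCATAA, 70 to 63 bases before the start of Cyp2a4 and 71 to 64 before that of Cyp2a5. The windows are identical at 98.5% of aligned bases. The motif occurs in 2.57% of 32851 windows of this length over all genes and in 4 of 69 windows of P450 members, those of Cyp2a4, Cyp2a5, Cyp2b10 and Cyp2b23. A match of letters describes the sequence and shows no binding. In these livers Dbp averaged 53.6 ± 7.05 TPM in livers labelled DKO and 61.7 ± 11.4 TPM in control livers (difference -0.19 ± 0.14, adjusted p = 0.524). Nfil3 stood at 103, 96.4, 101 and 95.6 TPM in re-expression livers, 134, 119, 134 and 125 TPM in livers labelled DKO and 28.7, 22.1, 26.5 and 30.3 TPM in control livers. Every re-expression liver and every liver labelled DKO lay above every control liver. Its difference between livers labelled DKO and control livers was 2.22 ± 0.09 (adjusted p = 8.46e-08).

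Cyp2c genes moved in both directions in livers labelled DKO, with 7 higher and 1 lower of 13 tested, beside 2.99% and 2.34% of all genes. Cyp2c55, an arachidonic acid hydroxylase that CAR and PXR induce, changed most and stood at 34.8, 13.5, 12.9 and 26.3 TPM in re-expression livers, 53.7, 39.5, 61.4 and 36.7 TPM in livers labelled DKO and 3.94, 18.98, 12.2 and 10.95 TPM in control livers. The lowest liver labelled DKO was above the highest control liver, and 2 re-expression livers lay among the control values. The difference between livers labelled DKO and control livers was 2.10 ± 0.41 (adjusted p = 0.0140), a ratio of means of 4.15. Cyp2c38, whose enzyme forms epoxides of arachidonic acid, had 49.1, 39.4, 39.4 and 39.1 TPM in re-expression livers, 18.2, 23.3, 24.96 and 17.5 TPM in livers labelled DKO and 77.7, 41.4, 32.2 and 34.1 TPM in control livers. It was lower in each liver labelled DKO than in any liver of the other groups, with a difference of -1.03 ± 0.24 from control (adjusted p = 0.0282) and 0.453 times the control mean. Its neighbour Cyp2c39, a retinoic acid hydroxylase, averaged 2.03 ± 0.369 TPM in livers labelled DKO and 3.49 ± 2.56 TPM in control livers and was not called.

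Of the others called, 3 are known as CAR and PXR targets: Cyp2c37, Cyp2c50 and Cyp2c54. Cyp2c37 stood at 754, 659, 456 and 588 TPM in re-expression livers, 611, 644, 891 and 873 TPM in livers labelled DKO and 533, 384, 349 and 438 TPM in control livers. The difference between livers labelled DKO and control livers was 0.82 ± 0.18 (adjusted p = 0.0249), a ratio of 1.77. Cyp2c54 stood at 1053, 1063, 787 and 921 TPM in re-expression livers, 805, 904, 1119 and 1047 TPM in livers labelled DKO and 752, 569, 615 and 629 TPM in control livers, with a difference of 0.59 ± 0.13 (adjusted p = 0.0231). In both genes the groups of the comparison did not overlap, and DKO livers 3 and 4 were higher than DKO livers 1 and 2. Cyp2c50, the most abundant of these, stood at 1225, 1162, 949 and 1164 TPM in re-expression livers, 1025, 1079, 1223 and 1251 TPM in livers labelled DKO and 869, 834, 866 and 831 TPM in control livers. The control livers spanned only 831 to 869 TPM, and the difference was 0.42 ± 0.09 (adjusted p = 0.0191), a ratio of 1.35. Cyp2c29, the most abundant Cyp2c gene, stood at 2296, 2008, 1561 and 2073 TPM in re-expression livers, 1964, 1989, 2121 and 2082 TPM in livers labelled DKO and 1885, 2018, 1935 and 1925 TPM in control livers, with overlap and a difference of 0.07 ± 0.10 (95% interval -0.15 to 0.29).

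The adjacent copies Cyp2c67 and Cyp2c68 were also higher in livers labelled DKO. Cyp2c67 had 622, 599, 405 and 466 TPM in re-expression livers, 577, 412, 718 and 735 TPM in livers labelled DKO and 383, 371, 354 and 364 TPM in control livers. Its difference was 0.69 ± 0.18 (adjusted p = 0.0488) and its ratio of means 1.66. The control livers were tight, from 354 to 383 TPM, while the livers labelled DKO spread from 412 to 735 TPM. Cyp2c68 had 322, 373, 295 and 277 TPM in re-expression livers, 367, 328, 464 and 405 TPM in livers labelled DKO and 284, 247, 182 and 183 TPM in control livers. Its difference was 0.82 ± 0.16 (adjusted p = 0.0129) and its ratio 1.75, with no overlap. Cyp2c23, a kidney and liver arachidonic acid epoxygenase that lies apart from the cluster, had 782, 621, 574 and 574 TPM in re-expression livers, 726, 703, 790.1 and 781 TPM in livers labelled DKO and 585, 562, 541 and 561 TPM in control livers. Its difference was 0.41 ± 0.09 (adjusted p = 0.0258), and every liver labelled DKO lay above every control liver.

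Leaving out 1 liver ended several of these calls. No single liver ended the calls of Cyp2c55 and Cyp2c68, though Cyp2c68 was lost without control livers 3 and 4 together (adjusted p = 0.0641). Cyp2c50 was lost without DKO liver 3 or 4 (up to 0.0613). Cyp2c37 and Cyp2c54 were each lost without DKO liver 3 or 4 or control liver 2 or 3 (up to 0.0771 and 0.0723). Cyp2c38 was lost without DKO liver 1, 2 or 4 or control liver 2 (up to 0.0844). Cyp2c23 was lost without DKO liver 1, 3 or 4 or control liver 2, 3 or 4 (up to 0.0770). Cyp2c67 was lost without any 1 of 9 livers, all but DKO liver 2 and re-expression livers 1 and 3 (up to 0.134).

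On mm10, 14 of the members form a Cyp2c cluster at chr19:39007019-40187333, a span of 1180 kb. Of its 12 tested genes, 6 were higher and 1 lower in livers labelled DKO, beside 2.99% and 2.34% of all genes. Of genes with a mean of at least 100 TPM, 17.1% were called in either direction. Among the 12, 10 differences were above 0, where 50.2% of all genes were, and the median was 0.41 on the log2(TPM + 1) scale. The cluster opens with Cyp2c55 (chr19:39007019-39042693, plus strand). The lower gene, Cyp2c38 (chr19:39389556-39463075, minus strand), lies between Cyp2c29 and Cyp2c39. Cyp2c37 (chr19:39992424-40012243), Cyp2c54 (chr19:40037940-40073827) and Cyp2c50 (chr19:40089688-40113950) follow each other toward its far end. Shared exon windows were 52.8% for Cyp2c67, 43.3% for Cyp2c68, 30.1% for Cyp2c37, 25.7% for Cyp2c54 and 18.3% for Cyp2c50, so reads of these genes may be split between copies. For Cyp2c55 and Cyp2c38 the shares were 0.514% and 7.45%, and Cyp2c23 at chr19:44005022-44029208 shared none. An exon of Cyp2c55 overlaps one of Gm23800 on the other strand.

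**Figure D3:**
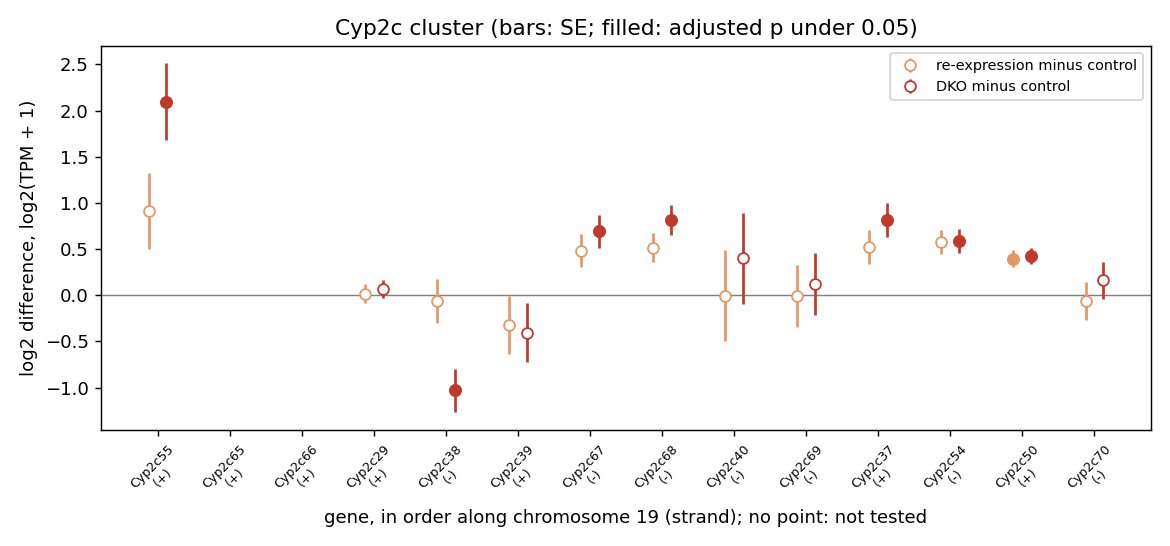
Differences of the Cyp2c cluster genes in their order along chromosome 19, in log2(TPM + 1) with SE bars, for re-expression against control and for livers labelled DKO against control. Filled points are called. For livers labelled DKO they are 7 of 12 genes, beside 5.33% of all genes, with Cyp2c38 as the called gene below 0. For re-expression livers Cyp2c50 alone is called, beside 1.82% of all genes.

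The promoters of Cyp2c67 and Cyp2c68 are shown as those of called neighbours that carry a motif of HNF4alpha, a hepatocyte receptor known to drive many liver P450 genes. The windows are taken from RefSeq as above, with the motif CAAAGTCCA in capitals.
Cyp2c67 chr19:39649093-39649292 (-): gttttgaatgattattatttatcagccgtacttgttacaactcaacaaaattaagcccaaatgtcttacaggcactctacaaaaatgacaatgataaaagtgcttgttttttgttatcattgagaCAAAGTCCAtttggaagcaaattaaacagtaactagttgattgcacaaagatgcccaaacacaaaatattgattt
Cyp2c68 chr19:39741152-39741351 (-): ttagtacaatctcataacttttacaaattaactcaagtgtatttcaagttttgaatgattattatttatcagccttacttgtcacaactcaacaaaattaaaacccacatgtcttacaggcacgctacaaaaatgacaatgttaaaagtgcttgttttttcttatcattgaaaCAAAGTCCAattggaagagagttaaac
The motif lies 125 to 117 bases before the start of Cyp2c67 and 77 to 69 before that of Cyp2c68, and the windows match at 140 of 152 aligned bases, or 92.1%, with 1 gap. Searched on both strands, it occurs in 0.295% of windows over all genes and in 7 of 69 member windows: Cyp2c65, Cyp2c67, Cyp2c68, Cyp2c69, Cyp2c70, Cyp3a11 and Cyp3a16. Of these genes Cyp2c67 and Cyp2c68 were called, and these windows come from copied genes, so they are not independent. AGGTCA, the core to which REV-ERB and ROR proteins bind, occurs in 11.4% of all windows and in 16 of 69 member windows, or 23.2%. Among 11 windows of genes higher in livers labelled DKO it occurs in 2, those of Cyp2j5 and Cyp3a59. The member windows with AGGTCA include those of several Cyp2b and Cyp3a copies, so they too are not independent, and a match shows no binding by any protein. Hnf4a itself was not called (difference 0.16 ± 0.07, adjusted p = 0.225).

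Cyp3a and Cyp2d genes were mostly near control levels, with single genes that moved. Cyp3a13 stood at 210.4, 188, 247 and 156 TPM in re-expression livers, 166, 202, 143 and 159 TPM in livers labelled DKO and 425, 279, 282 and 224 TPM in control livers. It was lower in each liver labelled DKO than in any control liver, with a difference of -0.82 ± 0.19 (adjusted p = 0.0294) and 0.553 times the control mean. Cyp3a59 moved the other way, at 312, 188, 337 and 198 TPM in re-expression livers, 373, 357, 201 and 336 TPM in livers labelled DKO and 132, 186, 176 and 137 TPM in control livers. Its difference was 0.98 ± 0.24 (adjusted p = 0.0366) and its ratio 2.01, and DKO liver 3 at 201 TPM came close to control liver 2 at 186 TPM. Cyp3a11, the main mouse counterpart of the drug-oxidising human CYP3A4 and a PXR target, stood at 2647, 2222, 2641 and 2138 TPM in re-expression livers, 2534, 2007, 2115 and 2511 TPM in livers labelled DKO and 1908, 2416, 1857 and 2197 TPM in control livers. The groups overlapped, and the difference was 0.13 ± 0.12 (95% interval -0.12 to 0.38). Cyp3a25 averaged 2039 ± 325 TPM in livers labelled DKO and 1951 ± 161 TPM in control livers and shares exon windows with Cyp3a59, whose shared windows came to 30.02%. Cyp3a59 lies at chr5:146079257-146113287, in the Cyp3a cluster, and Cyp3a13 at chr5:137892932-137921619, apart from it and with no shared window.

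Of the 3 genes that fell, Cyp2d40 was the one called under all 22 alternatives. It stood at 51.8, 55.5, 60.5 and 53.2 TPM in re-expression livers, 59.1, 42.6, 47.7 and 47.5 TPM in livers labelled DKO and 72.1, 98.5, 118 and 95.2 TPM in control livers. The re-expression livers and the livers labelled DKO were all below the lowest control liver. The difference between livers labelled DKO and control livers was -0.94 ± 0.14 (adjusted p = 0.00248), 0.513 times the control mean. Cyp2d40 (chr15:82759833-82764183) shares 14.5% of its windows. Cyp2d9, a testosterone 16alpha-hydroxylase of male mouse liver, stood at 1651, 1881, 1784 and 1949 TPM in re-expression livers, 1717, 1773, 1839 and 1700.5 TPM in livers labelled DKO and 1196, 1645, 1719.7 and 1904 TPM in control livers, with overlap and a difference of 0.14 ± 0.12 (95% interval -0.12 to 0.41). Cyp2d22, the mouse gene most often compared with human CYP2D6, averaged 259 ± 15.6 TPM in livers labelled DKO and 205 ± 32.7 TPM in control livers and was not called (adjusted p = 0.118). Without control livers 3 and 4 it was called higher (difference 0.52, adjusted p = 0.0271). No single liver ended the Cyp2d40 call. Cyp3a13 was lost without DKO liver 1, 3 or 4 or control liver 1, 2 or 3 (up to 0.0803), and Cyp3a59 without DKO liver 1, 2 or 4 or control liver 1, 3 or 4 (up to 0.106).

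Of the Cyp2j genes, whose enzymes make epoxides of arachidonic acid, Cyp2j5 and Cyp2j6 moved little and with little spread. Cyp2j8 and Cyp2j9 were not called and spread more, with a pooled within-group SD of log2(TPM + 1) of 0.45 and 0.37, beside 0.07 for Cyp2j6. Cyp2j6 stood at 79.4, 69.3, 67.3 and 74.7 TPM in re-expression livers, 82.8, 84.8, 83.1 and 86.5 TPM in livers labelled DKO and 61.5, 64.5, 65.5 and 60.99 TPM in control livers. The livers labelled DKO formed the highest group and the control livers the lowest, with the re-expression livers between and no overlap of the 3 groups. Its difference between livers labelled DKO and control livers was 0.41 ± 0.06 (adjusted p = 0.00313), a ratio of 1.34, and no single liver ended the call. Cyp2j5, the most abundant Cyp2j gene, stood at 853, 838, 748 and 779 TPM in re-expression livers, 844, 894, 838 and 839 TPM in livers labelled DKO and 775, 735, 630.2 and 679 TPM in control livers. Its difference was 0.28 ± 0.07 (adjusted p = 0.0487) and its ratio 1.21. That call was lost when any 1 liver other than control liver 1 was left out (up to 0.128). Cyp2j6 (chr4:96516138-96553661) and Cyp2j5 (chr4:96628773-96664154) share 0.422% and 0.174% of their exon windows with other genes. Of 9 arachidonic acid genes listed, 8 were found in the table by symbol and tested. The listed Cyp2c44 is absent under that symbol, and whether it stands there under another symbol, such as that of a member named here, was not checked. Of these 8, Cyp2j5 and Cyp2j6 were called, both higher, beside 2.99% of all genes. The 8 do not hold every P450 gene of arachidonic acid named above. Outside them Cyp2c23 and Cyp2c55 were called higher and Cyp2c38 lower.

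**Figure D4:**
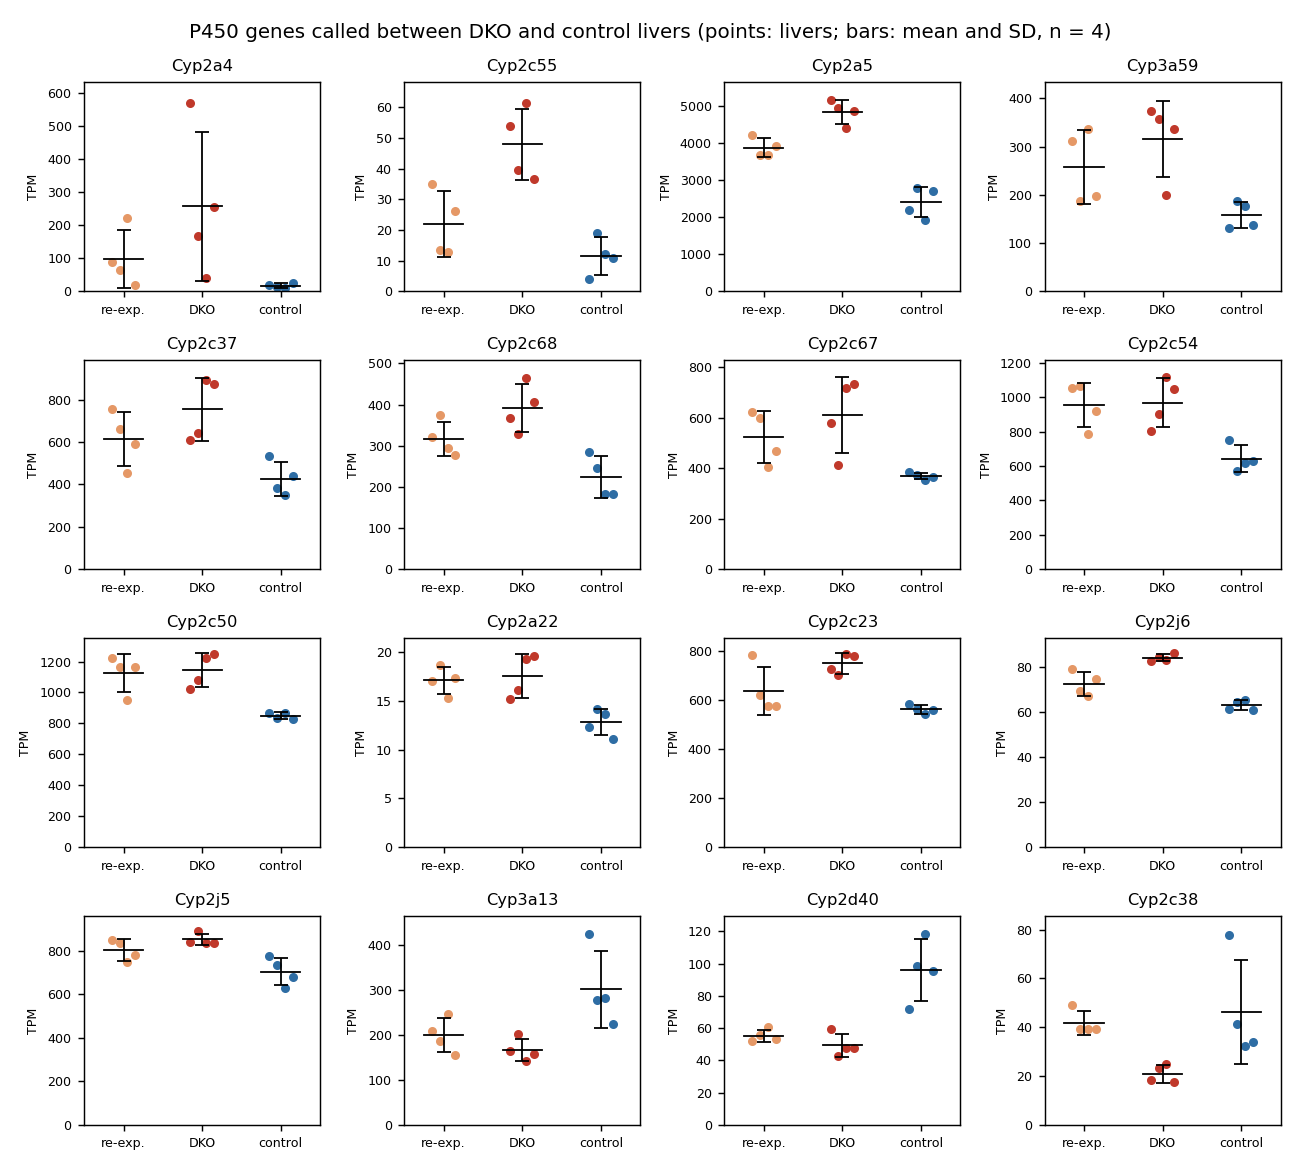
TPM of the 16 P450 genes that passed the test for livers labelled DKO against control, in re-expression livers, livers labelled DKO and control livers, with 1 point per liver and bars for the mean and SD (n = 4). In all 16 panels the livers labelled DKO and the control livers do not overlap.

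Cyp2e1 and Cyp1a2, abundant enzymes of pericentral hepatocytes, were not called. Cyp2e1 stood at 8663, 7497, 7097 and 7248 TPM in re-expression livers, 6616, 6798, 8011 and 7196 TPM in livers labelled DKO and 7528, 6859.9, 6567 and 7749.8 TPM in control livers. The difference between livers labelled DKO and control livers was -0.00 ± 0.09, with a 95% interval of -0.21 to 0.20. Cyp1a2, an AhR target that oxidises caffeine and aromatic amines, stood at 1495, 1289, 1192 and 1614 TPM in re-expression livers, 1553, 1271, 1598 and 1282 TPM in livers labelled DKO and 946, 1321, 1569 and 1576 TPM in control livers. The interval of its difference was -0.26 to 0.45, and control liver 1 was the lowest of the 12 livers. Of 8 P450 genes listed as pericentral, 4 were higher in livers labelled DKO (Cyp2a5, Cyp2c37, Cyp2c50 and Cyp2c54), beside 2.99% of all genes, and 17.1% of genes with a mean of at least 100 TPM were called in either direction. Their median difference was 0.28. Of 8 pericentral markers that are not P450s, such as Glul and Axin2, none was called, with a median of 0.06.

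Other subfamilies are given by their most abundant member. Cyp2b10, the classic phenobarbital-induced CAR target, stood at 21.5, 40.1, 34.2 and 53.97 TPM in re-expression livers, 26.8, 44.5, 36.9 and 21.6 TPM in livers labelled DKO and 28.7, 15.1, 30.1 and 35.4 TPM in control livers, with overlap of all groups. Cyp2f2, which oxidises naphthalene and is made near the portal vein, stood at 663, 905, 874 and 926 TPM in re-expression livers, 889, 886, 860.3 and 939.6 TPM in livers labelled DKO and 667, 903, 1054 and 805 TPM in control livers. Cyp4v3, related to the human fatty acid hydroxylase CYP4V2, stood at 345, 296, 305 and 304 TPM in re-expression livers, 301, 342, 324 and 336 TPM in livers labelled DKO and 244, 343, 287 and 309 TPM in control livers. Cyp2b10, Cyp2f2 and Cyp4v3 differed between livers labelled DKO and control livers by 0.25 ± 0.32, 0.08 ± 0.14 and 0.15 ± 0.10, each less than 2 SE. Cyp2r1, a vitamin D 25-hydroxylase, stood at 24.6, 23.4, 21.9 and 18.9 TPM in re-expression livers, 26.99, 26.6, 21.6 and 19.4 TPM in livers labelled DKO and 29.1, 27.7, 19.3 and 20.8 TPM in control livers. Cyp2u1, a fatty acid hydroxylase, stood at 51.3, 49.7, 42.3 and 57.9 TPM in re-expression livers, 55.9, 58.03, 41.98 and 54.2 TPM in livers labelled DKO and 27.2, 40.4, 41.9 and 45.7 TPM in control livers, and control liver 1 was the lowest. Its difference was 0.44 ± 0.16 (adjusted p = 0.161), and that of Cyp2r1 was -0.03 ± 0.15. Cyp4f14, a leukotriene B4 hydroxylase, stood at 292, 312, 263 and 336 TPM in re-expression livers, 333, 276, 293 and 361 TPM in livers labelled DKO and 264, 300.2, 281 and 277 TPM in control livers and differed by 0.16 ± 0.10 (adjusted p = 0.419).

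Among the low subfamilies, Cyp4b1 stood at 27.3, 20.6, 23.8 and 27.2 TPM in re-expression livers, 25.1, 34.7, 38.5 and 30.1 TPM in livers labelled DKO and 24.1, 22.7, 22.9 and 30.7 TPM in control livers. Cyp2g1, known from olfactory mucosa, stood at 3.96, 4.22, 10.1 and 7.35 TPM in re-expression livers, 6.54, 5.25, 6.27 and 4.38 TPM in livers labelled DKO and 7.71, 7.94, 8.22 and 11.1 TPM in control livers, and the groups labelled DKO and control did not overlap. Their differences were 0.34 ± 0.15 and -0.56 ± 0.24 (adjusted p = 0.244 and 0.247). Cyp2t4 stood at 1.18, 0.849, 0.270 and 1.09 TPM in re-expression livers, 0.532, 0.879, 2.702 and 1.55 TPM in livers labelled DKO and 1.44, 1.37, 0.630 and 0.631 TPM in control livers, close to the limit for testing. Cyp4f17 also had groups that did not overlap without a call: 19.7, 20.99, 36.7 and 25.3 TPM in livers labelled DKO, against 15.1, 15.3, 14.5 and 19.5 TPM in control livers, a difference of 0.61 ± 0.18 (adjusted p = 0.0803).

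The members were also read by the receptor known to induce them, as counts with no test between lists. Of 10 listed CAR- and PXR-responsive genes, 5 were higher in livers labelled DKO than in control livers (Cyp2a5, Cyp2c37, Cyp2c50, Cyp2c54 and Cyp2c55) and 1 lower (Cyp3a13), beside 2.99% and 2.34% of all genes. The median difference was 0.34. Against control, re-expression livers had 2 of the 10 higher (Cyp2a5 and Cyp2c50), beside 1.16% of all genes, and a median of 0.41. Most of these genes are abundant, and of all genes with a mean of at least 100 TPM, 17.1% and 4.35% were called in these comparisons. The summed level of the 10 listed genes ran from 13681 to 15036 TPM in livers labelled DKO and from 9872 to 11205 TPM in control livers. The means of that sum were 14333 and 10659 TPM, of which Cyp2a5 alone gave 4848 and 2414 TPM. The classic targets Cyp2b10 and Cyp3a11 were among the 4 not called. Of 2 tested AhR-responsive genes and 4 PPARalpha-responsive genes none was called. Of 8 genes listed as female-biased in liver, 3 were tested and Cyp2a4 was higher, beside 2.99% of all genes. Cyp2b13, Cyp3a16, Cyp3a44, Cyp3a41a and Cyp3a41b stayed under 1 TPM. Of 4 listed as male-biased, Cyp4a12a, a fatty acid hydroxylase outside the rule, was lower, beside 2.34% of all genes. It averaged 151 ± 36.96 TPM in livers labelled DKO and 323 ± 103 TPM in control livers (SD, n = 4 each, difference -1.07 ± 0.23, adjusted p = 0.0223). The median of the 4 male-biased genes was -0.37. Of the 4 lettered copies outside the rule, 2 were tested, with a median of -0.77. Cyp4a12a was the 1 called, beside 5.33% of all genes, and that call was lost without any 1 of 5 livers (up to 0.0644). Of 2 periportal P450 genes, Cyp2f2 and Cyp4v3, neither was called.

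The next comparison asked how P450 RNA in re-expression livers stands against livers labelled DKO. No P450 gene was called by limma, beside 0.0724% of all genes, or 13 genes (0.0278% higher and 0.0446% lower), and none was called with voom. An unadjusted p under 0.05 was reached by 9 members, or 17.0%, beside 6.19% of all genes. The groups did not overlap for 5 members, or 9.43%, beside 4.25% of all genes. Cyp2c38 and Cyp2d26 lay above the livers labelled DKO, as 2.09% of all genes did, and Cyp2a5, Cyp2c55 and Cyp2j6 below, as 2.16% did. The median difference over the members was -0.03, and 0.01 over all genes.

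The genes that differed from control in livers labelled DKO are set out here with the re-expression livers, whose comparisons share livers with that one. Cyp2c38 averaged 41.7 ± 4.93 TPM in re-expression livers and 20.97 ± 3.6996 TPM in livers labelled DKO, a difference of 0.97 ± 0.24 (adjusted p = 0.260). It was called when control liver 1 was left out (adjusted p = 0.0283). Against control livers, at 46.3 ± 21.3 TPM, the re-expression livers differed by -0.06 ± 0.24. Cyp2c55 averaged 21.9 ± 10.6 TPM in re-expression livers and 47.8 ± 11.7 TPM in livers labelled DKO, with a difference of -1.18 ± 0.41 (adjusted p = 0.591). Cyp2a5 differed by -0.32 ± 0.11 (adjusted p = 0.605) and Cyp2j6 by -0.21 ± 0.06 (adjusted p = 0.408). Cyp2c50 and Cyp2c54 stood nearest to the livers labelled DKO, with differences of -0.03 ± 0.09 and -0.02 ± 0.13 and 95% intervals of -0.22 to 0.17 and -0.30 to 0.27. Cyp2a4 varied widely within both groups, and its interval was -3.11 to 0.44. The 95% intervals are not adjusted for the number of genes.

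Re-expression livers against control livers gave 3 calls, 5.66% of members beside 1.82% of all genes. Cyp2a5 and Cyp2c50 were higher, beside 1.16% of all genes, and Cyp2d40 lower, beside 0.663%. Of members with a mean of at least 100 TPM, 2 of 29 were called, or 6.90%, beside 4.35% of all such genes. An unadjusted p under 0.05 was reached by 20 members, or 37.7%, beside 12.5% of all genes, and for 11 members, or 20.8%, the groups did not overlap, beside 7.28%, of which 10 were higher (4.29% of all genes) and 1 lower (3%). Cyp2a5 differed by 0.70 ± 0.11 (adjusted p = 0.00921), a ratio of 1.61, and no single liver ended this call. Cyp2d40 differed by -0.77 ± 0.14 (adjusted p = 0.0170) and was lost without re-expression liver 1 or 4 (up to 0.0564). Cyp2c50 differed by 0.40 ± 0.09 (adjusted p = 0.0488) and was lost without any 1 of 10 livers, all but DKO liver 1 and re-expression liver 3 (up to 0.141). Cyp2c54 missed the threshold, at 0.57 ± 0.13 (adjusted p = 0.0510), and so did Cyp4f17, at 0.73 ± 0.18 (0.0691). Without control livers 3 and 4, Cyp2a5 was the 1 member still called (adjusted p = 0.0276), where 0.895% of all genes were called higher and 0.689% lower. All 3 genes called here were also called, in the same direction, between livers labelled DKO and control livers, and both comparisons use the same control livers.

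The 4 tested Cyp4a genes inside the naming rule, fatty acid omega-hydroxylases induced by PPARalpha, were not called. Cyp4a10, Cyp4a14 and Cyp4a31 had their highest value in a re-expression liver. Cyp4a10 stood at 1224, 636, 1028 and 938 TPM in re-expression livers, 413, 306, 837 and 272 TPM in livers labelled DKO and 563, 533, 130.1 and 219 TPM in control livers. The lowest re-expression liver was above the highest control liver, and DKO liver 3 lay among the re-expression livers. The differences were 1.17 ± 0.48 against livers labelled DKO (adjusted p = 0.740) and 1.61 ± 0.48 against control livers (adjusted p = 0.138). Cyp4a14 stood at 1389, 452, 923 and 585 TPM in re-expression livers, 503, 221, 588 and 135 TPM in livers labelled DKO and 565, 230.4, 44.5 and 108 TPM in control livers, a range within the control livers alone of 44.5 to 565 TPM. It differed by 1.31 ± 0.71 (adjusted p = 0.917) against livers labelled DKO and by 2.26 ± 0.71 (adjusted p = 0.171) against control livers. Cyp4a31 stood at 54.6, 15.996, 43.3 and 37.6 TPM in re-expression livers, 17.7, 13.6, 27.9 and 10.9 TPM in livers labelled DKO and 22.9, 26.8, 8.11 and 8.91 TPM in control livers, and Cyp4a32 at 193, 114, 117 and 179.97 TPM in re-expression livers, 91.8, 103, 203 and 85.2 TPM in livers labelled DKO and 109.7, 89.5, 108 and 104 TPM in control livers. In the 4 control livers Cyp4a10, Cyp4a14 and Cyp4a31 were lower in livers 3 and 4 than in livers 1 and 2.

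All 4 differences of the Cyp4a genes inside the rule were positive in each comparison, with medians of 0.30 for livers labelled DKO against control, 1.10 for re-expression against livers labelled DKO and 1.40 for re-expression against control. Without control livers 3 and 4, the differences of Cyp4a10, Cyp4a14 and Cyp4a31 between livers labelled DKO and control livers were -0.41, -0.23 and -0.56, below 0 and not called. Those between re-expression and control livers were 0.76, 1.08 and 0.47, smaller than with all control livers. With voom on recovered reads Cyp4a10 was called higher in re-expression than in control livers (adjusted p = 0.0294). Ppara, the gene of the receptor, averaged 209.7 ± 21.3 TPM in re-expression livers, 160.1 ± 8.76 TPM in livers labelled DKO and 256 ± 8.503 TPM in control livers, and was lower in livers labelled DKO than in control livers (difference -0.67 ± 0.08, adjusted p = 0.000394). Cyp4a12a, in the same subfamily but outside the rule, was called lower in livers labelled DKO than in control livers, as given above. It stood at 319.9, 221, 269.8 and 292 TPM in the re-expression livers and was not called there against control livers (difference -0.18 ± 0.23). Cyp4a12b, also outside the rule, averaged 65.4 ± 14.7 TPM in livers labelled DKO and 95.2 ± 36.1 TPM in control livers and was not called. Cyp4a32 and Cyp4a10 share 43.8% and 29.8% of their exon windows with other genes, and Cyp4a14 0.235%.

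**Figure D5:**
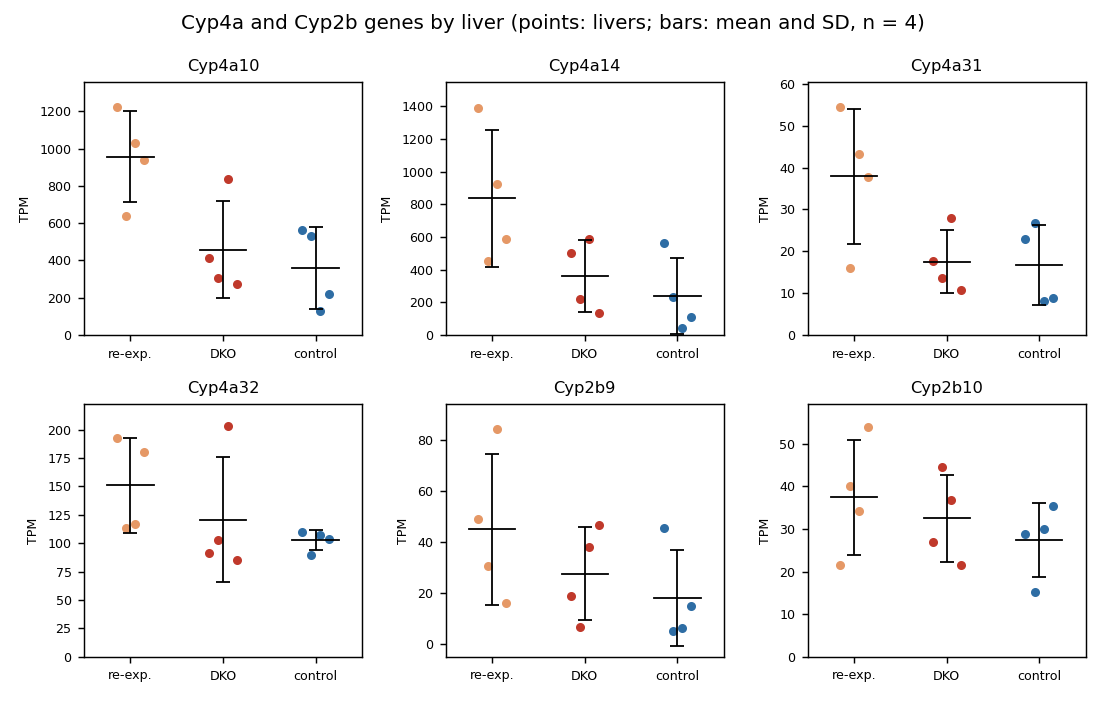
TPM of 4 Cyp4a and 2 Cyp2b genes in re-expression livers, livers labelled DKO and control livers, with 1 point per liver and bars for the mean and SD (n = 4). Cyp4a14 spreads from 44.5 to 565 TPM within the control livers, and Cyp2b9 and Cyp2b10 overlap in all groups.

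P450 genes differed widely in how constant they were among livers of a group. The pooled within-group SD of log2(TPM + 1) had a median of 0.25 over the tested members and 0.25 over all tested genes. Among genes with a mean of at least 100 TPM the medians were 0.18 for members and 0.15 for all genes. Cyp2a4 (1.30), Cyp2b9 (1.18), Cyp4a14 (1.14), Cyp2c40 (0.77), Cyp4a10 (0.76), Cyp4a31 (0.72) and Cyp2c55 (0.66) had the largest within-group SD. Cyp2j6 (0.07), Cyp2a12 (0.08), Cyp2j5 (0.09), Cyp2e1 (0.12) and Cyp2c50 (0.13) were at the low end. Cyp2b9, a female-biased gene of mouse liver, had 49.1, 30.6, 84.6 and 15.9 TPM in re-expression livers, 18.6, 6.59, 38.2 and 46.8 TPM in livers labelled DKO and 45.5, 5.201, 6.27 and 15.01 TPM in control livers. The 3 groups overlapped, and neither DKO background was called against control.

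Genes that serve P450 enzymes or control them were described from lists. Of 11 electron partners and genes of heme synthesis or breakdown, Por was the 1 called and was lower in livers labelled DKO, beside 2.34% of all genes. Por encodes the oxidoreductase that passes electrons to P450s. It stood at 239, 299, 309 and 311 TPM in re-expression livers, 252, 255, 272 and 195 TPM in livers labelled DKO and 351, 324, 411 and 491 TPM in control livers, a difference of -0.69 ± 0.14 (adjusted p = 0.0189) between livers labelled DKO and control livers. Every liver labelled DKO was below every control liver. The call was lost without DKO liver 4 (adjusted p = 0.0526) and without control livers 3 and 4 (adjusted p = 0.0837). Alas1, the rate-limiting step of heme synthesis, stood at 268, 459, 412 and 496 TPM in re-expression livers, 232, 168, 572 and 266 TPM in livers labelled DKO and 597, 654, 592 and 609 TPM in control livers and missed the threshold (difference -1.14 ± 0.31, adjusted p = 0.0569). The median of the 11 was -0.03. Of 18 tested regulators out of 20 listed, 2 were higher and 2 lower, beside 2.99% and 2.34% of all genes. Of genes with a mean of at least 100 TPM, 17.1% were called in either direction. Nr0b2, the gene of the corepressor SHP, averaged 99.5 ± 15.1 TPM in livers labelled DKO and 40.3 ± 22.8 TPM in control livers, with control livers 1 and 2 at 20.1 and 21.2 TPM and control livers 3 and 4 at 62.2 and 57.9 TPM. The ratio of means was 2.46, or 4.81 without control livers 3 and 4, and the call was lost without any 1 of 9 livers (adjusted p up to 0.110). Stat5b, a growth hormone signal transducer, averaged 49.1 ± 1.72 TPM in livers labelled DKO and 36.1 ± 5.25 TPM in control livers and was lost without any 1 of 6 livers (up to 0.0826). Ppara, above, and Cebpa (233 ± 7.64 and 276 ± 14.6 TPM), a hepatocyte transcription factor, were lower, and Cebpa was lost without any 1 of 9 livers (up to 0.124).

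The genes of CAR and PXR did not pass the test for livers labelled DKO against control. Nr1i3, the gene of CAR, had 78.8, 80.5, 83.1 and 80.6 TPM in re-expression livers, 65.7, 63.2, 64.2 and 70.3 TPM in livers labelled DKO and 68.6, 60.5, 60.4 and 69.7 TPM in control livers. It differed by 0.03 ± 0.07 between livers labelled DKO and control livers, and was called higher in re-expression than in control livers (difference 0.32 ± 0.07, adjusted p = 0.0360). That call was lost without any 1 of 9 livers (up to 0.104). Nr1i2, the gene of PXR, averaged 111 ± 9.47 TPM in livers labelled DKO and 116 ± 3.21 TPM in control livers. Of the 4 D-box factors, Nfil3 was higher and Tef lower in livers labelled DKO (94.7 ± 4.87 against 121 ± 9.42 TPM, adjusted p = 0.0140). Over all genes 2.99% were higher and 2.34% lower. The medians were -0.05 for the regulators and -0.08 for the D-box factors.

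Markers of the cells in the tissue moved with the groups as follows, and their part in the P450 differences was not tested. No listed marker was at 0 in all livers. Alb, the albumin gene of hepatocytes, lay between 19309 and 24464 TPM in the 12 livers. None of 7 periportal hepatocyte markers was called (median 0.21). Of 8 stellate cell markers, 3 were higher (Lrat, Reln and Dcn), beside 2.99% of all genes, with a median of 0.52. The stellate sum ran from 339 to 379.99 TPM in livers labelled DKO, against 202 to 319 TPM in control livers. The call of Dcn was lost without any 1 of 9 livers (adjusted p up to 0.133). Of 6 sinusoidal endothelium markers none was called (median 0.31, sums of 193 to 248 TPM in livers labelled DKO against 159 to 184 TPM in control livers). Of 7 Kupffer cell markers none was called, with a median of -0.46 and sums of 388 to 452 TPM in livers labelled DKO against 372 to 887 TPM in control livers. Of 5 red blood cell genes none was called, with a median of 0.85 and sums of 399.9 to 686 TPM in livers labelled DKO, against 276 to 382 TPM in control livers. Of 4 tested cholangiocyte markers, Sox9 was higher, beside 2.99% of all genes. Sums over the list were 76.7 to 85.99 TPM in livers labelled DKO and 74.5 to 105 TPM in control livers. Sox9 itself was at 8.97 ± 2.32 TPM in livers labelled DKO and 2.04 ± 0.589 TPM in control livers. The median of the tested cholangiocyte markers was 0.29. In re-expression against control livers, Reln and Sox9 were the markers called, both higher, beside 1.16% of all genes. Reln was lost without any 1 of 11 livers (up to 0.109). In re-expression livers the sums ran over 286 to 354 TPM for stellate, 134 to 196 TPM for sinusoidal, 332 to 947 TPM for Kupffer, 372 to 835 TPM for red blood cell and 79.4 to 106 TPM for cholangiocyte genes. The medians against control livers were 0.34, 0.01, -0.21, 1.02 and 0.48 in that order. The highest Kupffer sum was in re-expression liver 1, where Marco stood at 231 TPM and the other re-expression livers at 12.4 to 34.1 TPM. That liver also had the highest P450 sum and the highest Cyp4a10 and Cyp4a14 levels of all livers.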

How the data were processed

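RNA-seq of 12 mouse livers was taken as a deposited table of 48537 genes whose TPM values the authors computed. The submitters' processing notes list build mm10 and, without roles, STAR 2.7.1a, featureCounts 2.0.1, DESeq2 1.36.0, bcl2fastq 2.17 and SAMtools 1.9. Per the labels' protocols, 1 microgram of total RNA went into a strand-specific kit. The authors' fold changes and p-values in the table were not used. Whole reads were recovered from each TPM and gene length less a constant, with 100% of values within 0.01 reads of a whole number, and gave the depth and the reads for voom. The test was limma 3.58.1 (R 4.3.3, limma-trend, two-sided) on log2(TPM + 1), fitted to all 12 livers together with 9 residual df. It took the 17957 genes whose mean reached 1 TPM, Benjamini-Hochberg adjusted over all of them, at a threshold of 0.05. Differences of low genes are understated on that scale. Ratios are of mean TPM. Replicate livers differed by more than sampling noise (chi-square per degree of freedom from 4.08 to 13.5). Same-numbered livers of different groups deviated together little (1 of 12 correlations over 0.1), and no pairing was used.

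The members and gene lists were chosen with earlier results of these data known. The text gives in full the members called in any comparison and the most abundant member of each subfamily, other members by level or count, and called or abundant genes of the lists. Cyp2c39, Cyp2d22, Cyp2j8, Cyp2j9, Cyp4f17, Cyp2b9 and the Cyp4a genes other than Cyp4a10 were named after their values were seen. Positions and exon windows come from GENCODE release 21 for mouse on mm10, and promoters from RefSeq on GRCm38.p6, where 62 of 75 members had an entry. Alternatives changed the pseudocount, the filter on low values, the scaling, the livers in the fit and the test, added the replicate number as a block, and left out each liver in turn. The fit without control livers 3 and 4 was added after the data were seen. The procedure was also run on simulated reads. There all genes shared 1 setting of spread, unlike the genes of these livers, so that run does not show how the test performs on them. Figures were drawn with Python 3.11.15 and matplotlib 3.10.9. 1 marker list is not reported here.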

Additional observations from a re-analysis of the deposited data

Results flagged for a closer look

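Over the named members, 93 groups of 4 livers were checked for a liver whose gap to the nearest of the others, as a share of the group's range, exceeded Dixon's 95% critical value. There were 4, where chance gives about 1 in 20 groups. Cyp2c38 in re-expression liver 1 was at 49.1 TPM, with the next at 39.4 and the lowest at 39.1 TPM. The difference of this gene between re-expression livers and livers labelled DKO rests on all 4 re-expression livers, which all lie above every liver labelled DKO. Cyp2j5 in DKO liver 2 was at 894 TPM, with the next at 844 TPM. Cyp2g1 in control liver 4 was at 11.1 TPM, with the next at 8.22 TPM. Cyp4b1 in control liver 4 was at 30.7 TPM, with the next at 24.1 TPM.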

How the results depend on the processing

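Of the counts of called members, the 13 higher in livers labelled DKO than in control livers became 8 with no filter on low values, 6 with the replicate number as a block and 4 without control livers 3 and 4, and ranged from 4 to 11 with 1 liver left out. Under the other alternatives this count was within 1.5 times of 13. Of all genes 2.99% were called higher as reported, 1.4% with no filter, 2.36% with the block and 2.67% without control livers 3 and 4. The 3 lower genes became 1 with only the 8 livers compared, beside 1.29% of all genes, and ranged from 1 to 3 with 1 liver left out. Re-expression livers against livers labelled DKO gave 0 to 1 higher and 0 lower members with 1 liver left out. For re-expression against control livers, the 2 higher members became 1 with no filter, 4 at a mean TPM of at least 5, 1 with size factors, 1 with the replicate block, 1 with only the 8 livers compared, 6 with voom and 1 without control livers 3 and 4, with 1 to 3 when 1 liver was left out. From no filter to the fit without control livers 3 and 4, the shares of all genes were 0.595%, 2.11%, 1.19%, 0.807%, 0.64%, 1.69% and 0.895%, beside 1.16% as reported. The 1 lower member, Cyp2d40, became 0 with the replicate block, with the 8 livers compared and without control livers 3 and 4, with 0 to 1 when 1 liver was left out. In those 3 fits 0.356%, 0.262% and 0.689% of all genes were lower, beside 0.663% as reported. The cause of these shifts was not tested, apart from fewer livers or more tested genes where an alternative brings them. Correlations of deviations between same-numbered livers were small, from -0.07 to 0.14. Those between re-expression and control livers were all above 0, from 0.04 to 0.14, and those with livers labelled DKO were all below 0. Such values cannot exclude a batch that follows the replicate number. Of the values of single named members under the alternatives, 125 lost their call, 9 gained one, 11 uncalled values moved by more than the spread (all without control livers 3 and 4) and no called value changed sign. Members under 1 TPM and genes with a wide spread, such as Cyp2a4, Cyp2b9 and Cyp4a14, are where depth and liver number limit these data, and reads of near-identical Cyp2c, Cyp2a, Cyp3a and Cyp4a copies may be shared out by the counting.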
